A study of Mus musculus with 6 samples.

Results

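The genes described here encode the parts that hold axonemal dyneins in place on the doublet microtubules of motile cilia: the outer arm docking complex (Ccdc114, Armc4, Ccdc151 and Ttc25), the nexin-dynein regulatory complex, or N-DRC (Drc1, Ccdc65, Gas8 and Iqcg), and the 96-nm ruler (Ccdc39 and Ccdc40). They were taken by gene symbol from a table of read counts, and all 10 of them were found among its 22851 symbols. RNA had been sequenced from primary mouse cells of 2 genotypes on a C57BL/6J background, WT and Edf1 KO, with 3 libraries each. The knockout mice were made with CRISPR/Cas9. Radial glial cells, progenitors at the ventricle wall, were isolated from brains at P0 to P3, grown with 10% serum and then kept without serum for 6 days so that they became multiciliated ependymal cells. Both genotypes received the same induction. The series' design calls the replicates biological, but how many animals went into a culture was not given in the sources used here.

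The beating of a motile cilium is driven by outer and inner dynein arms that repeat along each doublet microtubule. The docking complex fixes each outer arm to its doublet. The ruler, a filament of the coiled-coil proteins Ccdc39 and Ccdc40, sets the repeat at which inner arms and radial spokes attach, and the N-DRC links neighbouring doublets and restrains their sliding so that the cilium bends. In people, loss of several of these proteins causes primary ciliary dyskinesia. Ependymal cells use such cilia to move cerebrospinal fluid. Edf1 is known both as a coactivator of transcription and as a sensor of ribosome collisions.

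Total counts were 13071766 to 28087006 per library. Edf1 had 80.2 to 85.9 CPM (counts scaled to a common library total) in the WT libraries and 9.84 to 13.2 CPM in the KO libraries, which matched the labels. The cultures carried ependymal markers, and 8 of 10 of these were lower in the KO, among them Foxj1 and Ccdc153, which also belong to lists used below. Their summed level overlapped between genotypes, at 8286 to 9271 CPM in WT against 8477 to 8722 CPM in the KO. Most of that sum was Vim, which radial glia also express, and Vim was higher in every KO library than in any WT library without passing the test (log2 fold change 0.13). Markers of other cell types also differed. Over all tested genes, 14.2% were lower and 12.7% higher by the test described below, and the marker counts in this paragraph stand against these shares. The 8 microglial markers summed to 1585 to 1713 CPM in WT against 1022 to 1039 CPM in the KO, and 7 of 8 were lower. The 8 markers of meningeal fibroblasts and mural cells summed to 564 to 605 CPM in WT against 726 to 812 CPM in the KO, and the 7 of them that were tested were higher. Of 4 endothelial markers, Kdr was higher in the KO, Pecam1 and Cdh5 were below the filter, and Cldn5 had at most 3 counts in each library. The 8 radial glial and astrocyte markers summed to 3729 to 3920 CPM in WT against 4102 to 4263 CPM in the KO, with 3 higher and 1 lower. Of 6 choroid plexus markers 4 were tested and 1 was higher, and of 5 neuronal markers 4 were tested and 2 were lower. The 5 tested oligodendrocyte lineage markers had log2 fold changes of -0.37 to 0.14, none past the threshold. The part of culture composition in the results below was not tested. In bulk RNA, fewer ciliated cells and less RNA of a gene per ciliated cell cannot be told apart.

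The 10 genes lie on 9 chromosomes of GRCm38, with Ttc25 and Ccdc40 both on chromosome 11. In the GENCODE M21 annotation, 7 of them share no exon base with another gene. Iqcg (chr16:33012683-33056218, minus strand) shares 48.1% of its exon bases with Lrch3 on the opposite strand. Ccdc39 (chr3:33812362-33844310, minus strand) shares 16.9% with Ttc14 on the opposite strand. Ccdc114 (chr7:45924072-45948963, plus strand) shares 1.69% with the antisense gene Gm45442. Whether the counting used strand was not given in the sources used here, so reads from these shared exons cannot be assigned with certainty. Of the 31-base words in each gene's transcripts, at most 4.80% also occurred in another gene for the 8 genes other than Iqcg (47.7%) and Ccdc39 (15.4%).

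The RefSeq table (GRCm38.p6) held a promoter window, 250 bases before to 50 after the start, for 8 of the 10 genes, which are all except Armc4 and Ttc25. These windows were searched on both strands for the binding elements of the 2 transcription factor families known to act on motile cilia genes. Regulatory factor X (RFX) proteins bind the X-box, searched as its core GTTGCC, as its full palindrome and as a looser palindrome in which 2 of the middle bases may vary. Foxj1 is a forkhead factor, and its element was searched as TGTTTAC. Every stricter palindrome is also a looser one. The core was found for 3 of 8 genes, against 14.1% of the 27025 genes in the table. The looser palindrome was found for 1 of 8, against 0.529%. The stricter palindrome (0.152% of genes) and TGTTTAC (4.05% of genes) were not among the letters of these 8 windows. The 150 bases just before the start are shown 5′ to 3′ for the 4 genes with a match, and for Ccdc65 and Ccdc40 as genes without one. Capitals mark the matches. The letters were searched as given, so a variant site that differs from them does not count as a match.
Ccdc151: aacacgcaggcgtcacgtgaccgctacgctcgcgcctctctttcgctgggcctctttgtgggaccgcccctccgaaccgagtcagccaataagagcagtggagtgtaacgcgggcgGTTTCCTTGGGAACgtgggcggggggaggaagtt
Drc1: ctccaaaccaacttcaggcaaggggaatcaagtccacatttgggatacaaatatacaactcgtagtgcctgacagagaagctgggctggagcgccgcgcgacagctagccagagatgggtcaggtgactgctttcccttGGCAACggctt
Iqcg: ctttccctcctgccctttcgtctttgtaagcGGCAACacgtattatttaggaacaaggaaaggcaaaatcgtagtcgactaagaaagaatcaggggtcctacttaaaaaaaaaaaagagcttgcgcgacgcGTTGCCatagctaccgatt
Gas8: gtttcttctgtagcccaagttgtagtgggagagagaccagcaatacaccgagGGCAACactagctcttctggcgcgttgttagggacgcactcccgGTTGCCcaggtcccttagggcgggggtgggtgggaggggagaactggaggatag
Ccdc65: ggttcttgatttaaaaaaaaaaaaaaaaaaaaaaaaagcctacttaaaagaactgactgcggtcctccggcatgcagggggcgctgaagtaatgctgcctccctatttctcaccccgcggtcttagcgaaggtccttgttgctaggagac
Ccdc40: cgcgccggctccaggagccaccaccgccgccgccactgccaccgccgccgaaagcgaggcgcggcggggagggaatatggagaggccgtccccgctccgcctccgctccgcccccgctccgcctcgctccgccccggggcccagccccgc

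These stretches are chr9:22002635-22002784 (minus strand) for Ccdc151, chr5:30281243-30281392 (plus) for Drc1, chr16:33056187-33056336 (minus) for Iqcg, chr8:123518685-123518834 (plus) for Gas8, chr15:98708044-98708193 (plus) for Ccdc65 and chr11:119228422-119228571 (plus) for Ccdc40. With the last base before the start counted as -1, the palindrome of Ccdc151 spans -34 to -21 and the core of Drc1 spans -11 to -6. Iqcg has 2 cores, at -119 to -114 and at -19 to -14. Gas8 has cores at -98 to -93 and at -54 to -49, and another after the start, outside the printed stretch. Of the 4 genes with a match, Ccdc151, Drc1 and Iqcg fell in the KO and Gas8 did not pass the test. Of the 4 genes without a match, Ccdc39, Ccdc40 and Ccdc65 fell and Ccdc114 did not pass. Of all tested genes, 14.2% were called lower. A match here is the core or the looser palindrome, and whether either bears on the fall was not tested.

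To ask which of these genes differed in level between WT and Edf1 KO cultures, the genotypes were compared with edgeR's quasi-likelihood test. Benjamini-Hochberg adjustment was over all 14243 genes that passed a filter on low counts. All 10 genes passed that filter and all 10 had a lower mean in the KO. At an adjusted p-value under 0.05, 8 of 10 fell and 0 rose, where 14.2% of all tested genes were called lower, 12.7% higher and 26.9% in either direction. The same 8 genes had every KO library below every WT library, against 22.1% of all tested genes. The median log2 fold change was -0.55 over the 10 genes and 0.0029 over all tested genes. Together the 10 genes took 0.134% to 0.139% of the counts in the WT libraries and 0.0913% to 0.103% in the KO libraries. Ccdc114 and Gas8 were the genes that did not pass.

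**Figure D1:**
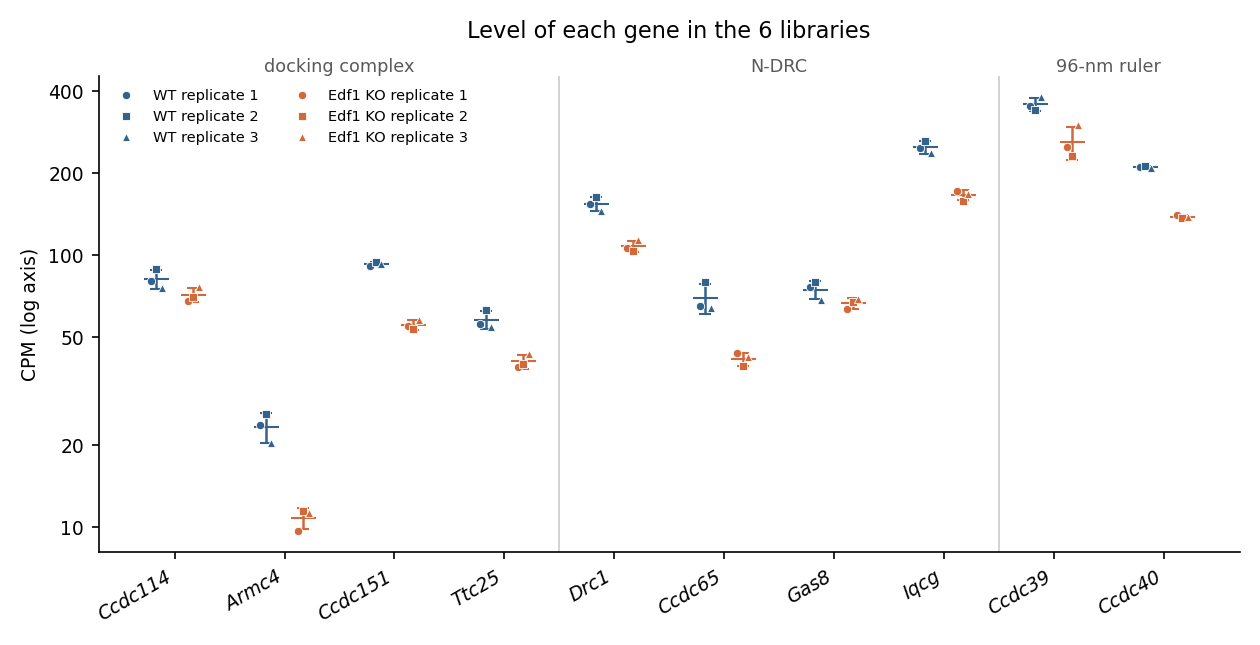
CPM of the 10 genes on a log axis in the 3 WT libraries (blue) and the 3 Edf1 KO libraries (orange), with the mean and SD of each genotype. The genotypes are separate for 8 genes and overlap for Ccdc114 and Gas8.

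In the docking complex 3 of 4 genes fell, and the log2 fold changes ran from -1.10 to -0.19. Armc4, an armadillo-repeat protein of the complex, had 23.7, 26.2 and 20.4 CPM in WT replicates 1 to 3 and 9.71, 11.5 and 11.3 CPM in KO replicates 1 to 3. Each KO library was far below the lowest WT library, and the KO mean was 46.2% of WT. The log2 fold change was -1.10 (SE 0.11, edgeR adjusted p-value 1.24e-05), the largest fall among the 10 genes. Armc4 also had the fewest reads of them, with 158 to 629 counts per library.

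Ccdc151, a coiled-coil subunit that binds Ccdc114, had 90.98, 94.2 and 93.2 CPM in WT against 55.1, 53.4 and 57.8 CPM in the KO. The libraries of each genotype lay close together and the genotypes were well apart. Its log2 fold change was -0.74 (SE 0.056, edgeR adjusted p-value 1.66e-06). Ttc25, a tetratricopeptide-repeat subunit of the complex, had 55.98, 63.1 and 54.7 CPM in WT against 38.8, 39.9 and 43.5 CPM in the KO. The genotypes did not overlap. Its log2 fold change was -0.50 (SE 0.072, edgeR adjusted p-value 0.000249).

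Ccdc114, a coiled-coil subunit of the same complex, had 80.7, 88.96 and 76.1 CPM in WT against 67.9, 70.1 and 76.2 CPM in the KO. WT replicate 3 and KO replicate 3 were at nearly the same level, so the genotypes overlapped. The log2 fold change was -0.19, with a 95% interval of -0.34 to -0.041, and the adjusted p-value was 0.0588 by edgeR. Over 13 alternatives its adjusted p-value ran from 0.0313 to 0.216, and it passed the threshold in 1 of them, the edgeR fit without WT replicate 3 (-0.24). The interval leaves out a fall as large as that of Ttc25 and reaches nearly to 0.

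Within a library, Ccdc114 stood higher relative to its partners in the KO than in WT. This follows from the fold changes above and is no separate support for them. Of the docking genes, only Ccdc114 was set against each of the others. The difference of log2 CPM between Ccdc114 and Armc4 was 1.81 ± 0.077 in WT and 2.71 ± 0.09995 in the KO (SD, n = 3 each), a shift of 0.91. Between Ccdc114 and Ccdc151 the shift was 0.55, and between Ccdc114 and Ttc25 it was 0.31. In these 3 pairs every KO library was above every WT library. The two-sided exact permutation p-value was 0.1 for each pair, the smallest that this test can give with 3 against 3 libraries, and 0.188 after Benjamini-Hochberg adjustment over 15 gene pairs.

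In the N-DRC, 3 of 4 genes fell. Drc1, a central scaffold of the complex, had 154, 164 and 145 CPM in WT against 106, 104 and 114 CPM in the KO. All KO libraries were below all WT libraries, with a log2 fold change of -0.51 (SE 0.061, edgeR adjusted p-value 5.51e-05). Ccdc65, also called Drc2, is the coiled-coil partner of Drc1. It had 64.98, 79.5 and 63.95 CPM in WT against 43.6, 39.1 and 42.1 CPM in the KO. WT replicate 2 stood above the other WT libraries, and the genotypes did not overlap. The log2 fold change of Ccdc65 was -0.73 (SE 0.084, edgeR adjusted p-value 4.19e-05).

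Within a library, the difference of log2 CPM between Drc1 and Ccdc65 was 1.16 ± 0.10 in WT and 1.37 ± 0.081 in the KO (SD, n = 3 each). It was higher in every KO library than in any WT library, with an exact permutation p-value of 0.1 (0.188 adjusted over the 15 pairs), the smallest that this test can give here. The shift follows from the fold changes of Drc1 and Ccdc65 and is no separate support for them.

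Iqcg, an IQ-motif subunit also called Drc9, had 247, 264 and 238 CPM in WT against 173, 159 and 168 CPM in the KO. The genotypes were apart, with a log2 fold change of -0.58 (SE 0.055, edgeR adjusted p-value 8.54e-06). Lrch3, which shares exon bases with Iqcg on the other strand, had 43.4 ± 6.27 CPM in WT against 42.8 ± 1.90 CPM in the KO (SD, n = 3 each). Its log2 fold change was -0.033 (adjusted p-value 0.825 by edgeR), and its part in the counts of Iqcg was not tested.

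Gas8, a coiled-coil subunit also called Drc4, had 76.3, 79.7 and 68.2 CPM in WT against 63.3, 67.4 and 69.1 CPM in the KO. The overlap came from WT replicate 3 and KO replicate 3, as for Ccdc114. The log2 fold change of Gas8 was -0.16, with a 95% interval of -0.31 to -0.016, and the adjusted p-value was 0.0946 by edgeR. Over the 13 alternatives its adjusted p-value ran from 0.0295 to 0.301. As with Ccdc114, it passed only in the fit without WT replicate 3 (-0.22).

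Both ruler genes fell. Ccdc40 had 211.8, 212.6 and 209.7 CPM in WT against 140.6, 137.3 and 138.002 CPM in the KO. It had the smallest spread between replicates, relative to its level, of the 10 genes, and its log2 fold change was -0.61 (SE 0.046, edgeR adjusted p-value 1.66e-06). Ccdc39, the partner of Ccdc40 in the ruler filament, had 355, 341 and 380.4 CPM in WT against 249.7, 231 and 300.1 CPM in the KO. KO replicate 3 was well above the other KO libraries but still below the lowest WT library. The log2 fold change of Ccdc39 was -0.46 (SE 0.081, edgeR adjusted p-value 0.00113).

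The ratio of the ruler partners was not resolved. The difference of log2 CPM between Ccdc39 and Ccdc40 was 0.76 ± 0.091 in WT and 0.90 ± 0.19 in the KO (SD, n = 3 each), and the libraries overlapped (exact permutation p-value 0.4). Ttc14, whose exons overlap those of Ccdc39 on the opposite strand, rose from 90.6 ± 13.9 CPM up to 118 ± 10.7 CPM (SD, n = 3 each), with a log2 fold change of 0.38 (SE 0.098, edgeR adjusted p-value 0.0125). The part of Ttc14 reads in the counts of Ccdc39 was not tested.

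**Figure D2:**
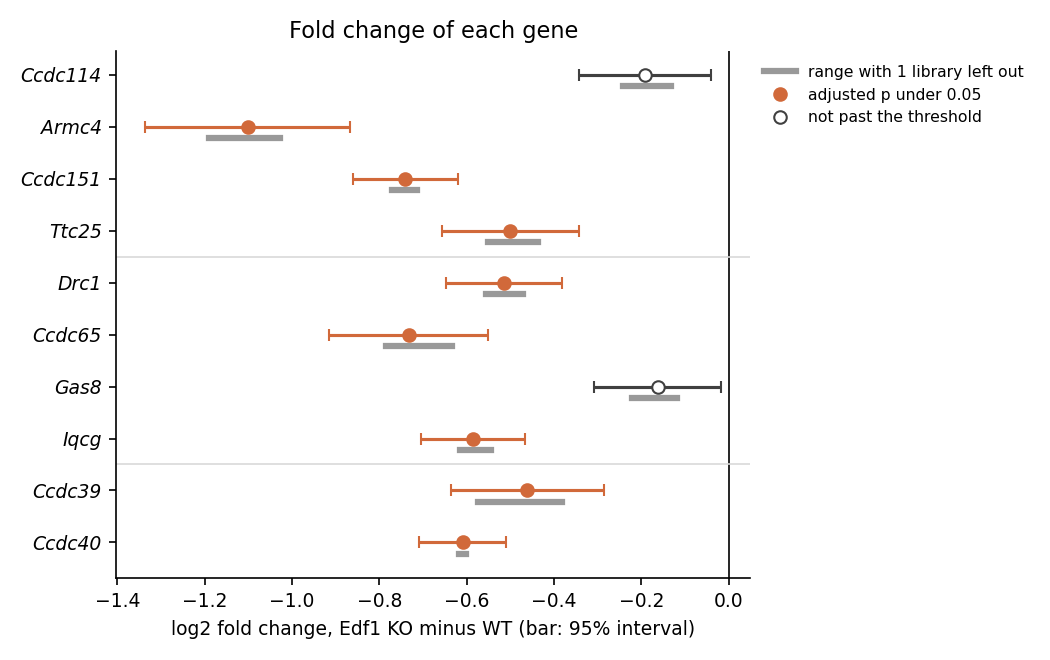
Log2 fold change of each gene, Edf1 KO minus WT, with its 95% interval. Filled points passed the adjusted threshold, open points did not, and grey bars give the range when 1 library is left out. The intervals of Ccdc114 and Gas8 lie nearest to 0, and that of Armc4 lies lowest.

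Some libraries were high or low for most of the genes. Among the WT libraries, replicate 2 was highest for 9 of 10 genes and replicate 3 was lowest for 8 of 10. Ccdc39 had the opposite order, with replicate 3 highest and replicate 2 lowest, and Ccdc151 was lowest in replicate 1. WT replicate 2 also had the lowest total count of the 6 libraries. Among the KO libraries, replicate 3, the one with the highest total, was highest for 6 genes and lowest for 0. The shares of all tested genes with these extremes were not computed. A shift across a whole library thus cannot be told from a trait of these genes. The 8 calls of a fall held in every alternative, including each fit without 1 library.

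The members were then set against Foxj1, the forkhead regulator of motile cilia genes, which had 759 to 838 CPM in WT against 517 to 535 CPM in the KO. Its log2 fold change was -0.59 (SE 0.049, edgeR adjusted p-value 3.41e-06). For 6 of the 10 genes the level relative to Foxj1 within a library overlapped between genotypes. The share of all tested genes that overlap in this way was not computed. As Foxj1 itself fell, a gene that fell less stands higher relative to it in the KO. The mean difference was smallest for Iqcg (0.0046 on the log2 scale) and Ccdc40 (-0.019), and both of these changed sign when single libraries were left out. Ccdc114 and Gas8 were higher relative to Foxj1 in every KO library, by 0.39 and 0.43. Armc4 and Ccdc151 were lower relative to Foxj1 in every KO library, by -0.51 and -0.15. These 4 genes reached the exact permutation p-value of 0.1, the smallest possible, and 0.188 after adjustment over the 15 pairs.

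**Figure D3:**
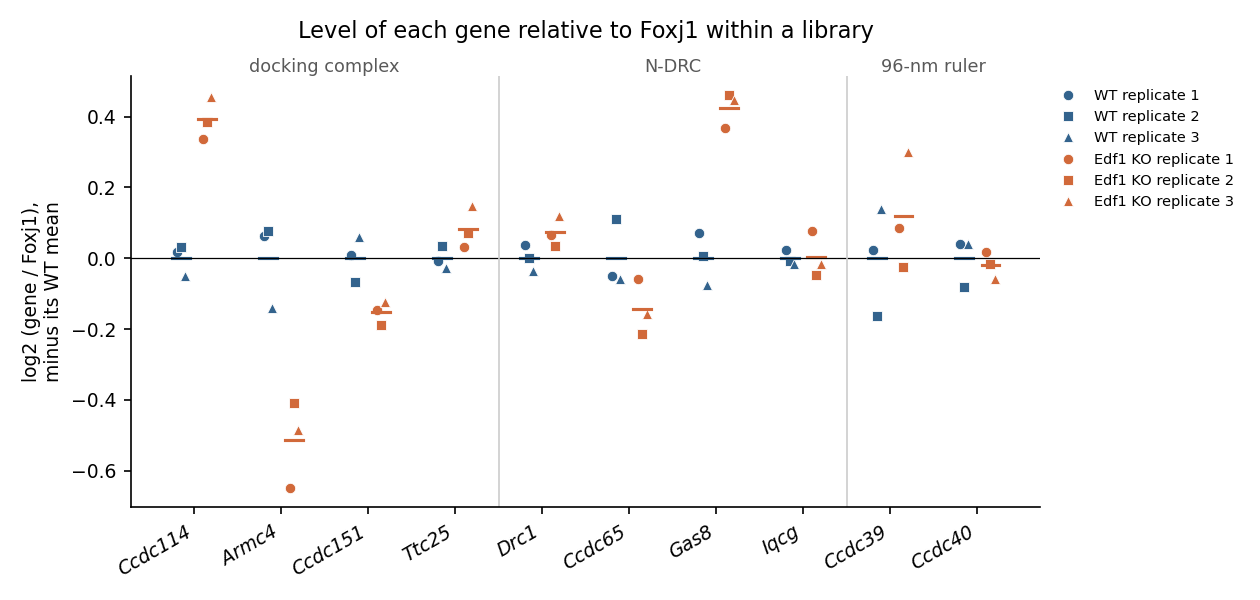
Log2 ratio of each gene to Foxj1 in each library, with the WT mean of that ratio set to 0. Blue points are WT and orange points Edf1 KO libraries, and short bars are means. Ccdc114 and Gas8 lie above 0 in the KO libraries, Armc4 and Ccdc151 below, and the other 6 genes overlap with WT.

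Levels of different genes were compared per kilobase of the longest annotated transcript. In WT, Ccdc39 was highest with 99.5 ± 5.59 CPM per kilobase and Drc1 followed with 62.5 ± 3.88 (SD, n = 3 throughout). Iqcg (44.5 ± 2.36), Ccdc40 (42.5 ± 0.3004) and Ccdc151 (42.2 ± 0.760) did not differ from each other beyond their spread. Ccdc65 followed with 36.6 ± 4.57, and its highest WT library reached the range of Ccdc151. Ccdc114 had 27.97 ± 2.23, Gas8 21.5 ± 1.70 and Ttc25 13.3 ± 1.04 CPM per kilobase. Armc4 was lowest with 6.68 ± 0.830 in WT and 3.08 ± 0.274 in the KO. The order in the KO was the same except that Ccdc114 (24.4 ± 1.47) moved above Ccdc65 (21.9 ± 1.202). The longest Ccdc114 model has only 4 exons, so its length is a poor guide to the mature transcript. The order among the upper 8 genes also depended on the length used: by coding length Iqcg came first, while Ttc25 and Armc4 came last by all 3 lengths. Subunits of 1 complex thus differed in transcript level, with Ccdc151 above and Armc4 below the other docking genes in WT by each of these lengths.

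Genes that work beside these complexes were compared in the same fit, from lists written with earlier results of these data known. The 6 lists hold 50 genes, of which 48 passed the filter. Of the 48, 40 were called lower and 0 higher, where 14.2% of all tested genes were called lower and 12.7% higher. The counts of single lists below stand against the same shares. Among 5 genes tied to outer arm docking, 4 were tested and all 4 fell, with a median log2 fold change of -0.64. Cfap53 fell most (-0.76), Efcab1, the calcium-binding docking subunit calaxin, fell by 0.70 on the log2 scale, and Mns1 changed by -0.57 and Ccdc103 by -0.51. Ccdc63, a relative of Ccdc114 known from sperm, had at most 1 count in any library and was not tested. Ccdc114 was therefore the only tested gene of both docking sets that did not pass.

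Of 8 further N-DRC subunits, 7 fell, with a median of -0.92. Ccdc153 went from 155 ± 26.6 CPM in WT down to 59.8 ± 1.92 CPM (log2 fold change -1.37), and Tcte1 from 28.2 ± 2.18 down to 12.005 ± 0.338 CPM (-1.22). Drc3 went from 235.7 ± 19.8 down to 113.6 ± 3.58 CPM (-1.05; SD, n = 3 throughout). These are the lowest values of the list, and they lie below those of Drc1, Ccdc65, Gas8 and Iqcg. Picking the lowest favours this, and the difference was not tested. Among the 7, Iqcd (-0.32) lost its call without WT replicate 1, KO replicate 1 or KO replicate 3. Efcab2, also called Drc8, was the 1 subunit that did not pass, at 33.4 ± 1.501 CPM in WT against 33.006 ± 2.80 CPM in the KO. Its log2 fold change was -0.017 with a 95% interval of -0.19 to 0.15, and its sign changed without WT replicate 3 or without KO replicate 1. Across the 12 N-DRC genes the log2 fold changes thus ran from -1.37 to -0.017.

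Of 10 genes whose products sit on the same axonemal repeat as the ruler, 8 fell, with a median of -0.73. Cfap73 (-1.06), Ccdc113 (-0.99) and Cfap57 (-0.91) had the lowest values. They lay below both Ccdc39 and Ccdc40, which picking the lowest favours, and this difference was not tested. Cfap100 had the highest, at -0.058 with a 95% interval of -0.20 to 0.083. It did not pass the test, and its sign changed without KO replicate 2. Cfap44, the other gene that did not pass (-0.20), was called without WT replicate 2 (-0.28) and with a replicate block (-0.19), and its value was -0.11 without KO replicate 2.

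Among the dynein arm subunits the fold changes covered a wider range than among the 10 members. Of 7 outer arm subunits 6 were tested and 5 fell, with a median of -0.56. Dnah11, an outer arm heavy chain, had the lowest value at -1.74, from 117 ± 7.49 to 34.97 ± 2.52 CPM (SD, n = 3 each). The intermediate chain genes Dnaic2 and Dnaic1 fell by 1.28 and 0.78 on the log2 scale. The light chain gene Dnal1 did not pass, at -0.17. Its value was -0.084 without WT replicate 1, and it passed without WT replicate 2 (-0.27, adjusted p-value 0.00238 by edgeR). The heavy chain genes Dnah5 and Dnah9, singled out after their values were seen because they encode major outer arm chains, changed by -0.34 and -0.35. The call of Dnah5 was lost without KO replicate 2 (-0.27, adjusted p-value 0.0606 by edgeR).

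Of 12 inner arm subunits 10 fell, with a median of -0.65. The heavy chain genes Dnah10 (-1.49) and Dnah3 (-1.35) and the intermediate chain gene Wdr63 (-1.15) had the lowest values. Dnah7b had the highest, at -0.18, and did not pass. Dnah7a, Dnah7b and Dnah7c are close copies, so their reads may have been split between them. Dnah7c (-0.51) lost its call without WT replicate 3, KO replicate 1 or KO replicate 2, and Dnah7a (-0.28) was called without WT replicate 1 (-0.35). Dnah7b was at -0.12 without WT replicate 1, and it was called without WT replicate 2 (-0.29) and with the replicate number as a block (-0.18, adjusted p-value 0.0448 by edgeR). Of 8 regulators of the multiciliated fate 6 fell, with Ccno (-1.25), Mcidas (-1.13) and Myb (-1.13) lowest. Rfx3, of the family that binds the X-box, had the highest value (0.0020), and its sign was not stable. Gmnc (-0.18) was called without WT replicate 2 (-0.22), and Rfx2 (-0.24) lost its call without KO replicate 2 or KO replicate 3.

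**Figure D4:**
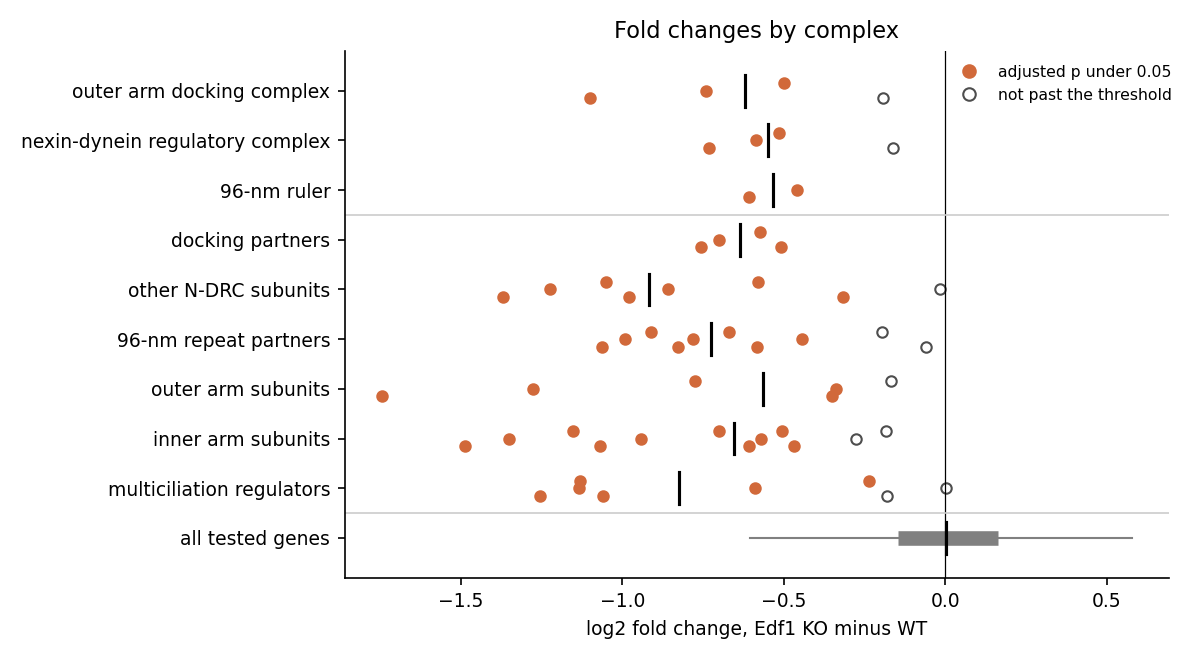
Log2 fold change, Edf1 KO minus WT, of every tested gene in the 3 complexes (top), in 6 lists of genes that work beside them (middle), and over all 14243 tested genes (bottom; thick bar 25% to 75%, thin bar 5% to 95%). Black ticks are medians, filled points passed the adjusted threshold, and the medians of the complexes and lists lie between -0.92 and -0.53 against 0.0029 for all genes.

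The genes whose pattern over the 6 libraries was most like the mean of the 10 members were found by the root mean square difference of centred log2 CPM. Foxj1 was closest (0.0254), followed by the N-DRC gene Drc7 (0.0255), the telomerase-associated gene Wrap53 (0.0266), the dynein arm assembly factor gene Dnaaf5 (0.0273) and Ccdc96 (0.0287). All 5 were lower in the KO, with log2 fold changes from -0.59 for Foxj1 to -0.52 for Wrap53. The choice by likeness to the members fixed this in advance, so it is no separate result. Of the members, Drc1 lay closest to the mean (0.0266) and Armc4 farthest (0.287), followed by Gas8 (0.204) and Ccdc114 (0.185).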

How the data were processed

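RNA-seq libraries (MGIEasy mRNA kit, TRIzol extraction, per the labels' protocols) from 3 WT and 3 Edf1 KO cultures were analysed. The authors deposited whole-number read counts per gene symbol, with 1 column per library. Per the submitters' processing notes, FastQC 0.11.2, cutadapt 1.11, HISAT2 2.1.0 and GRCm38 were used. The counting program, annotation and use of strand are not given in the sources used here. The table had 0 rows naming no gene and 0 unused columns of per-sample values.

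The deposited counts were filtered with filterByExpr (14243 of 22851 genes kept), scaled by TMM and tested in R 4.3.3 with edgeR 4.0.16's quasi-likelihood test on all 6 libraries without covariates. The SE is the log2 fold change over the square root of F, and 95% intervals use the same test's degrees of freedom. Log2 CPM used a prior count of 2. Library pairs of 1 genotype differed by more than counting noise, so no library was treated as a repeat deposit of another. Chi-square over degrees of freedom was 8.70 and 9.89 for the pairs with WT replicate 2 and 3.04 to 4.38 for the others. These values do not show that the libraries came from separate cultures, which rests on the series' design text. A total of 3 counts was taken as the floor per library, 0.106 to 0.233 CPM, which covers counting error only. DESeq2 1.42.0 and limma 3.58.1 (voom) served as alternatives. The tests were also run on simulated counts in which 200 genes were changed 2-fold. That setting has fewer changed genes than were called here and larger changes than most members showed, so it does not check the calls. Lengths and overlaps came from GENCODE M21, and promoters from RefSeq (GRCm38.p6).

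The members, the lists, the motifs and the rule for named genes were chosen with earlier results of these data known. By that rule, named genes are the members, Edf1, Foxj1, Rfx2 and Rfx3, and the 3 lowest and the 1 highest of each list. The rule adds the 5 genes most like the members with a mean log2 CPM of at least 1. Outside the rule, the text names Dnah5 and Dnah9, the untested Ccdc63, cell type markers and genes with shared exons. It also names list genes whose call changed in an alternative.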

Additional observations from a re-analysis of the deposited data

How the results depend on the processing

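The 8 calls of a fall were past the threshold in all 13 alternatives: DESeq2 size factors, library size alone, 2 other filters, DESeq2, limma voom, the replicate block and each library left out. The count of members called lower was 8 to 10 with 1 library left out, the 10 being without WT replicate 3, and their median log2 fold change then ran from -0.58 to -0.52. A threshold of 0.01 left the count of 8 but lowered that of all tested genes from 3833 to 2213, of which 1248 were lower, by its own construction. With 1 library left out, that count ran from 2658 to 4340. Of the 48 other cilia genes and regulators tested, 12 changed call or direction in some alternative, 10 of them only with a library left out. With 1 library left out, the sign was not stable for Rfx3 (-0.14 to 0.15), Efcab2 (-0.062 to 0.048), Cfap100 (-0.094 to 0.0061), Iqcg relative to Foxj1 (-0.032 to 0.031) and Ccdc40 relative to Foxj1 (-0.060 to 0.0020), and the cause was not tested. Rfx2 (-0.24) lost its call without KO replicate 2 or 3.

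The deviations of same-numbered libraries from the mean of their genotype had correlations of 0.0693, 0.0604 and 0.0372, so no pairing was assumed, although all 6 libraries correlated best with their own number. With the replicate number as a block, 4065 genes were called, 3683 of them shared with the 3833, and the count of members called lower was 8. Among the other genes of the lists, the block added calls for Cfap44 (-0.19) and Dnah7b (-0.18).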
